A study of Mus musculus with 18 samples.

Results

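The cathepsins described here are 9 protease genes of the lysosome, *Ctsa*, *Ctsb*, *Ctsc*, *Ctsd*, *Ctse*, *Ctsh*, *Ctsl*, *Ctss* and *Ctsz*. They were taken by gene symbol from the 3 expression tables of the series, which together list 19919 genes, and each of the 9 was found in all 3 tables. The study asked how loss of the transcriptional cofactor TRIM33 alters gene expression in the progenitors of dendritic cells (DCs). Bone marrow cells were sorted from C57BL/6 mice of 6 to 8 weeks as MPPs (multipotent progenitors: lineage-negative, CD34+, FLT3+, Sca-1+, CD117+), CD115- CDPs (common DC progenitors: lineage-negative, CD115-, CD127-, CD11c-, CD117int, FLT3+) and CLPs (common lymphoid progenitors: lineage-negative, CD127+, Sca-1+, CD11c-, CD117+, FLT3+). WT mice were *Trim33*fl/fl, and the KO-labelled (*Trim33*-/-) mice were *Trim33*fl/fl carrying Cre-ERT2, in which exons 2 to 4 are excised systemically rather than in blood cells alone. Mice of both genotypes carried the floxed alleles and were given tamoxifen, 2 mg daily over 5 days, and rested for 7 days. Each population had 3 WT and 3 KO-labelled libraries, 18 in all, prepared as biological repeats.

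Cathepsins are proteases of endosomes and lysosomes that are made as inactive proforms and mature as the compartment acidifies. They fall into cysteine, aspartic and serine classes, and cystatins and stefins block the cysteine class. In DCs and their relatives they degrade endocytosed proteins, trim the invariant chain that guards MHC class II molecules, and cut endosomal Toll-like receptors into their working form.

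Values are FPKM, which scale reads to transcript length and library size, so that levels of different genes can be set side by side. Depth, estimated from the steps between low FPKM values, was 19.2 to 21.3 M mapped reads per library. *Trim33* was at 10.42, 10.12 and 8.78 FPKM in WT against 9.71, 11.66 and 4.80 FPKM in KO-labelled MPPs, at 14.30, 15.23 and 8.27 against 9.64, 8.28 and 4.03 FPKM in CD115- CDPs, and at 12.36, 7.01 and 8.86 against 7.52, 5.60 and 7.66 FPKM in CLPs. The labels overlap in every population, so the libraries are called KO-labelled throughout. Gene-level FPKM sums all exons, so it does not test the deletion. Among the gate markers, *Il7r* (CD127) was highest in WT CLPs, at 32.56 to 63.03 FPKM, and *Cd34* in WT MPPs, at 440.86 to 496.53 FPKM, while *Csf1r* (CD115) RNA was present at 39.11 to 136.77 FPKM in WT CD115- CDPs. In the CD115- CDPs both libraries numbered 3 stood apart from the others: the summed level of 9 neutrophil granule markers reached 4510 FPKM in WT 3 as well as 4443 FPKM in KO 3, against 695 to 1063 FPKM in the other 4. In the MPPs KO 3 stood apart: without it the calls over all genes went from 163 to 548 lower and from 20 to 368 higher. In a bulk sample, fewer cells of a type and less RNA per cell cannot be told apart.

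On GRCm38.p6 (RefSeq annotation) the members are spread over the genome, with *Ctsb* at chr14:63122462-63145923, *Ctsl* at chr13:64361890-64370772, *Ctsh* at chr9:90054267-90076095, *Ctss* at chr3:95526786-95556405, *Ctsz* at chr2:174427494-174439039, *Ctsc* at chr7:88278024-88315861, *Ctsd* at chr7:142375910-142387827, *Ctse* at chr1:131638314-131675507 and *Ctsa* at chr2:164832872-164841032. RefSeq promoter sequences on the same build matched 6 of the 9 members by symbol. The 250 bases before the start are shown for *Ctss* and *Ctsz*, which were lower in KO-labelled CLPs, and for *Ctsd*, which was not called in any population, so that a member of either behaviour can be read. Capitals mark matches to 4 searched motifs on either strand, CACGTG (the E-box bound by TFEB and its relatives), GAAANNGAAA (an interferon regulatory factor element), GGAANNGAAA (an ETS-IRF composite element) and GAGGAAG (a PU.1 core).
Ctss: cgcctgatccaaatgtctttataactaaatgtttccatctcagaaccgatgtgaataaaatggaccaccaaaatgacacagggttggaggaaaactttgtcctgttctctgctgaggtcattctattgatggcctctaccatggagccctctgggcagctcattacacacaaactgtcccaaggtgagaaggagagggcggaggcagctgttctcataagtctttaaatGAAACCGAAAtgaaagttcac
Ctsz: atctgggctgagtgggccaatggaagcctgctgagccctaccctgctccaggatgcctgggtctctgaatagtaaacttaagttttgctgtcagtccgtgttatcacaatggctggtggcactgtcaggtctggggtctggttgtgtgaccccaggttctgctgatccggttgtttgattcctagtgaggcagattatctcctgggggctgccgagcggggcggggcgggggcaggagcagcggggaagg
Ctsd: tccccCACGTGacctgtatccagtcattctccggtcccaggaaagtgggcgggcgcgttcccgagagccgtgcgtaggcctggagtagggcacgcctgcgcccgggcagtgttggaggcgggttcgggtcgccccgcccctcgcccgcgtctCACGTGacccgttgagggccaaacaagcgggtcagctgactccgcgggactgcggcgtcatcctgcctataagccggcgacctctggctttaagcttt
The *Ctss* sequence is the plus strand of chr3:95526536-95526785, and those of *Ctsz* and *Ctsd* are the minus strand of chr2:174439040-174439289 and chr7:142387828-142388077. *Ctsd* held CACGTG 2 times, from 245 to 240 and from 98 to 93 bases before the start, a motif found in 6.02% of all 32851 promoters of this length. *Ctss* held GAAANNGAAA from 21 to 12 bases before the start, as did 2.98% of all promoters. None of the 4 motifs was found in the *Ctsz* window. CACGTG was also found in a second *Ctsa* window, from 12 to 7 bases before its start, and in the *Ctsl* window. Both windows lie inside the annotated genes. GAGGAAG was found 2 times in the *Ctsc* window on the minus strand, against 10.6% of all promoters. The *Ctsc* window runs past the first base of the gene given above. GGAANNGAAA, found in 2.3% of all promoters, was in no member's window. The motifs can share bases in principle, but no 2 matches overlapped in the members.

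Before the KO label is considered, the WT libraries show how these proteases differ between the 3 progenitors. The tables were made separately, so these levels were not tested against each other. *Ctsb*, a cysteine protease that acts both inside chains and from their carboxyl end, averaged 46.6 ± 1.49 FPKM (SD, n = 3) in MPPs, 121 ± 12.2 in CD115- CDPs, and then 224 ± 6.87 in CLPs, with no overlap between any pair of populations. *Ctsh*, an aminopeptidase, averaged 12.2 ± 0.633 FPKM in MPPs but 83.1 ± 45.3 in CD115- CDPs and 115 ± 8.47 in CLPs, and the last 2 overlapped. *Ctss*, which cleaves the invariant chain in DCs and B cells, and *Ctsz*, a carboxypeptidase, were lower in MPPs, at 34.5 and 75.9 FPKM, than in CLPs, at 95.9 and 148 FPKM, and for both genes the CD115- CDP range contained the CLP range. *Ctsl*, an endopeptidase, stood out in CLPs alone, at 34.70 to 41.29 FPKM, while its ranges in MPPs and CD115- CDPs overlapped.

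The other members differed less between WT populations. *Ctsd*, the main aspartic protease of lysosomes, was at 166 ± 8.50 FPKM in MPPs, against 138 ± 7.36 in CD115- CDPs and 145 ± 13.3 in CLPs. *Ctse*, an endosomal aspartic protease of immune and gastric cells, was at 10.5 to 14.2 FPKM on average. *Ctsc*, the dipeptidyl peptidase that activates granule serine proteases, had the lowest WT mean of the 9 in every population, at 7.17 to 8.88 FPKM, with ranges that overlapped those of *Ctsl* in MPPs and CD115- CDPs. *Ctsa*, the serine carboxypeptidase that shields beta-galactosidase and neuraminidase from degradation, went from 42.0 FPKM in MPPs to 70.2 FPKM in CLPs. The order of mean levels therefore began with *Ctsd*, *Ctsz* and *Ctsb* in WT MPPs and with *Ctsb*, *Ctsz* and *Ctsd* in WT CLPs, where the *Ctsz* and *Ctsd* ranges overlapped.

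**Figure D1:**
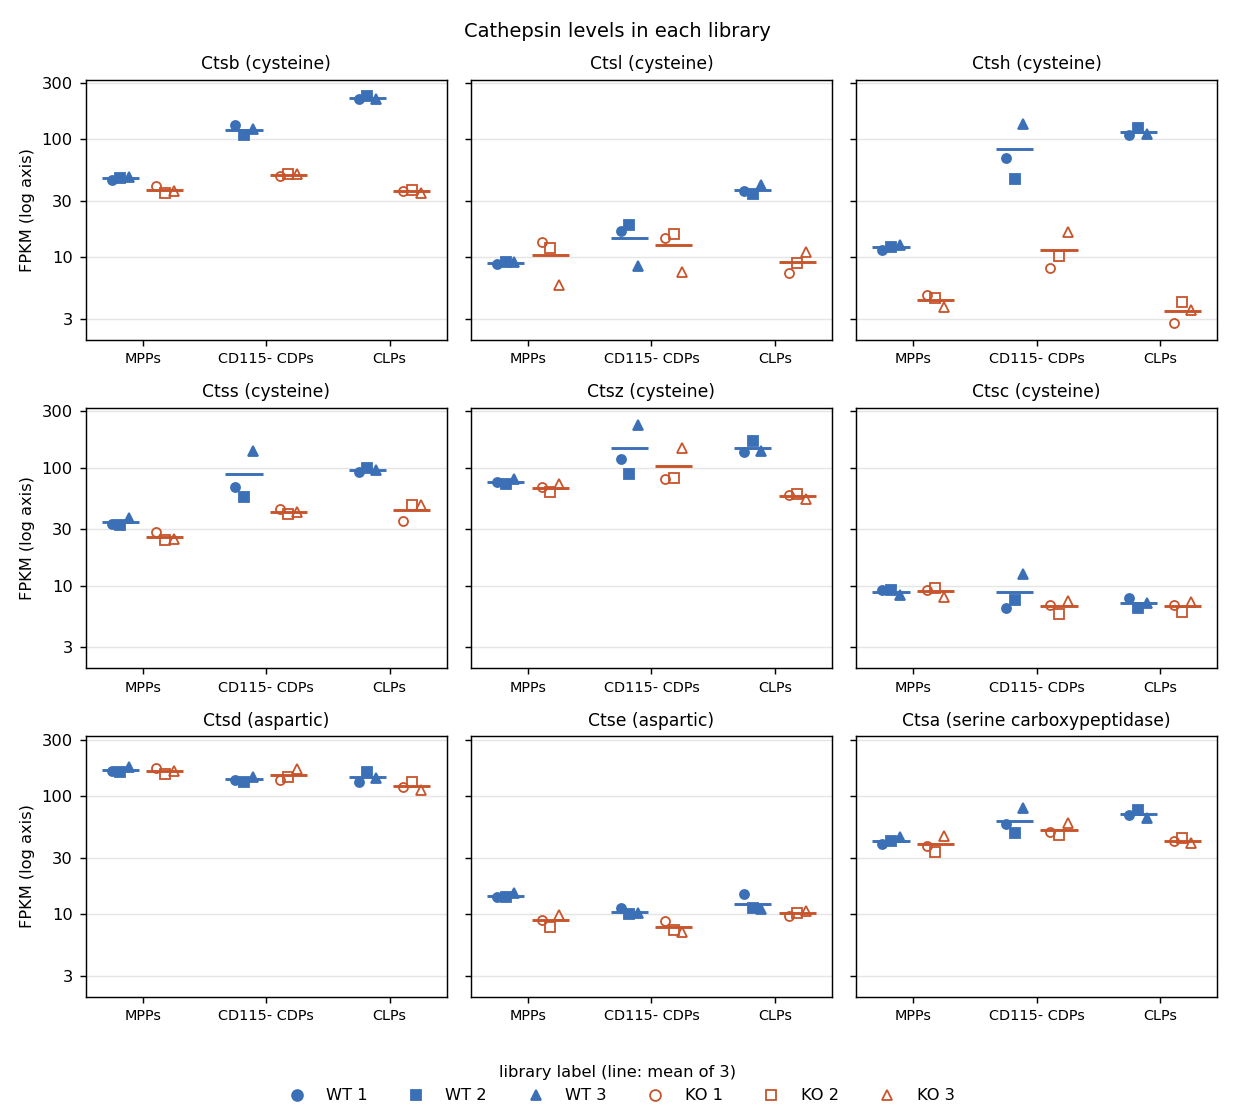
FPKM of the 9 cathepsins (log axis) in each library of MPPs, CD115- CDPs and CLPs, with filled blue symbols for WT, open red symbols for KO-labelled libraries, the symbol shape giving the library number and a line the mean of 3. In CLPs the WT and KO-labelled libraries of Ctsb, Ctsl, Ctsh, Ctss and Ctsz lie apart, while those of Ctsc and Ctsd overlap.

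In CLPs, 5 of the 6 cysteine cathepsins among the 9 members fell with the KO label. None of the 9 rose, also not at an unadjusted p of 0.05. Tests compared log2(FPKM + 1) over all genes whose mean FPKM reached 0.5 (limma, Benjamini-Hochberg adjustment), and a gene was called at an adjusted p of at most 0.05 and a change of at least 2-fold. All 9 cathepsins passed the filter in every population, with a level above it in every library. Lower calls numbered 5 of the 9 cathepsins and 2.84% of the 12339 genes tested in CLPs, and 7 of the 9 cathepsins had every KO-labelled library below every WT library, as 18.6% of genes had. The median log2 fold change of the 9 was -1.12, against 0.01 over all genes tested.

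*Ctsh* fell most. It was at 109.45, 124.57 and 110.41 FPKM in WT CLPs and at 2.76, 4.15 and 3.58 FPKM in KO-labelled CLPs, so that the KO-labelled libraries kept 3.05% of the WT mean. The lowest of these values stands on about 85 reads. On the log2(FPKM + 1) scale the change was -4.70 ± 0.133 (SE), with an adjusted p of 8.28e-07 in limma.

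*Ctsb*, the most abundant cathepsin of WT CLPs, was at 220.12, 232.25 and 220.58 FPKM in WT against 36.78, 37.05 and 35.29 FPKM in KO-labelled CLPs. The 2 groups lie far apart and each is tight, with coefficients of variation of 3.06% and 2.60%. The log2 fold change was -2.59 ± 0.0862 (SE; limma adjusted p = 1.57e-06). KO-labelled CLPs were thus below the *Ctsb* level of WT MPPs, at 45.11 to 48.09 FPKM.

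*Ctsl* was at 36.31, 34.70 and 41.29 FPKM in WT against 7.40, 8.96 and 11.02 FPKM in KO-labelled CLPs, a log2 fold change of -1.94 ± 0.145 (SE; limma adjusted p = 7e-05). The KO-labelled level was close to that of WT MPPs, at 8.75 to 9.16 FPKM. *Ctsz* was at 137.07, 168.98 and 138.17 FPKM in WT against 58.75, 60.10 and 54.77 FPKM in KO-labelled CLPs (log2 fold change -1.33 ± 0.111, limma adjusted p = 0.000129). *Ctss* was at 91.13, 100.10 and 96.50 FPKM in WT against 35.41, 48.64 and 48.43 FPKM in KO-labelled CLPs. Its KO 1 library was the lowest of the 3. The log2 fold change of *Ctss* was -1.12 ± 0.134 (SE; limma adjusted p = 0.00101), and without KO 1 it was -0.97, short of the 2-fold minimum at an adjusted p of 0.00144.

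The remaining 4 were not called in CLPs. *Ctsa* had 69.03, 76.11 and 65.45 FPKM in WT against 41.60, 44.00 and 39.89 FPKM in KO-labelled CLPs. It fell by less than 2-fold (log2 fold change -0.73 ± 0.0976, limma adjusted p = 0.00174), which brings the members that fell at this adjusted p to 6 of 9, against 8.92% of genes tested. *Ctsd* had a log2 fold change of -0.25 (95% interval -0.50 to 0.01), *Ctse* of -0.24 (-0.54 to 0.06) and *Ctsc* of -0.08 (-0.36 to 0.19), with limma adjusted p of 0.178, 0.263 and 0.701. The *Ctse* libraries did not overlap, at 10.98 to 14.66 FPKM in WT against 9.57 to 10.56 FPKM in KO-labelled CLPs, whereas those of *Ctsc* and *Ctsd* did. *Ctsa* overlaps *Pltp* in the genome, and *Pltp* was at 12.89 to 17.69 FPKM in WT against 0 to 0.06 FPKM in KO-labelled CLPs. *Ctsb* overlaps *Fdft1*, whose log2 fold change in CLPs was -0.77 (limma adjusted p = 0.00248) at 5.42 to 10.97 FPKM. *Ctsz* overlaps *Nelfcd*, at 25.98 to 38.88 FPKM in CLPs (log2 fold change -0.335, limma adjusted p = 0.0653). *Ctsa* also overlaps *Neurl2* (log2 fold change -0.06 in CLPs, limma adjusted p = 0.812), and *Ctss* overlaps the pseudogene *Hmgb1-ps5*. The strand setting of the counting is not given in the sources used here, and whether reads of the neighbours entered the cathepsin values was not tested.

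**Figure D2:**
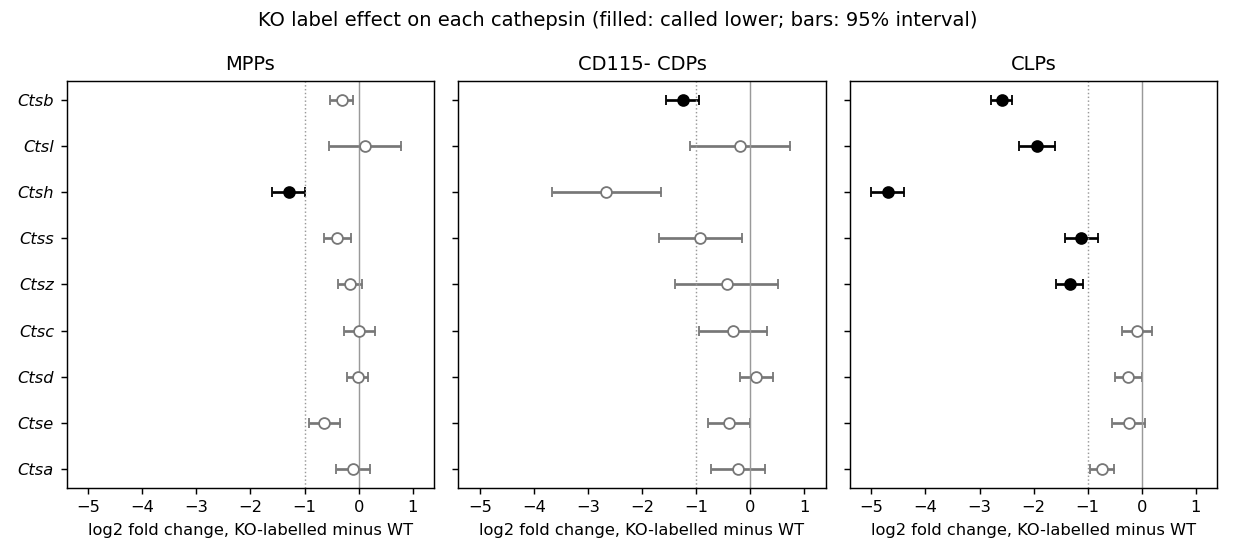
Log2 fold change of KO-labelled over WT libraries on the log2(FPKM + 1) scale for each cathepsin in MPPs, CD115- CDPs and CLPs, with 95% intervals from limma; filled points were called lower and the dotted line marks 2-fold. Called points number 5 in CLPs, 1 in CD115- CDPs and 1 in MPPs.

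In CD115- CDPs *Ctsb* was the cathepsin called, and *Ctsh* showed the larger difference but varied more between libraries. *Ctsb* was at 132.80, 108.35 and 121.80 FPKM in WT against 48.75, 50.79 and 51.18 FPKM in KO-labelled libraries. The KO-labelled values lie close together and well under every WT value. The log2 fold change was -1.25 ± 0.127 (SE; limma adjusted p = 0.0401), in a population where 0.0654% of 12229 genes were called lower. The call did not survive the removal of any 1 of the 6 libraries, with adjusted p of 0.103 to 0.346 and log2 fold changes of -1.32 to -1.18. Those fits called only 0 to 5 genes lower over all genes tested, against 8 with all libraries.

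*Ctsh* was at 68.85, 46.56 and 133.77 FPKM in WT CD115- CDPs and at 8.10, 10.25 and 16.29 FPKM in KO-labelled ones. The groups do not overlap, and the library numbered 3 was the highest under both labels. The log2 fold change of -2.66 ± 0.422 (SE) had a limma adjusted p of 0.142. Same-numbered libraries deviated together in this population (r = 0.437, 0.671 and 0.790), but WT 2 and KO 1 did so as well (r = 0.664). The numbers therefore do not establish pairs. In a fit blocked by replicate number the *Ctsh* change had a limma adjusted p of 0.00267. *Ctsh* was called there beside *Ctsb* (0.00456), against 1.46% of genes called lower in that fit. Without both libraries numbered 3, an alternative added after the data had been seen, *Ctsh* (-2.51) and *Ctsb* (-1.25) were both called, with limma adjusted p of 0.000906 and 0.00365, in a fit that called 1.29% of genes lower.

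The other members of CD115- CDPs did not pass the test. *Ctss* was at 68.90, 56.72 and 137.49 FPKM in WT against 44.97, 40.60 and 41.96 FPKM in KO-labelled libraries. WT 3 stood far above the other libraries, and without both libraries numbered 3 the *Ctss* log2 fold change went from -0.92 to -0.54, with limma adjusted p of 0.423 and 0.0969. *Ctsz*, *Ctse*, *Ctsc*, *Ctsa* and *Ctsl* had log2 fold changes of -0.44, -0.40, -0.32, -0.22 and -0.18. Without WT 3 alone *Ctsz* was at -0.05, *Ctsc* at -0.07 and *Ctsa* at -0.03. *Ctsd* was at 0.12 (95% interval -0.19 to 0.42), and at -0.01 when values were rescaled to TPM, a scaling that moved the median of all genes from -0.07 to -0.19. In 4 of 9 members, *Ctsb*, *Ctsh*, *Ctss* and *Ctse*, every KO-labelled library was below every WT library, as in 10.6% of genes tested. The median log2 fold change of the 9 was -0.40, against -0.07 over all genes.

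In MPPs *Ctsh* was the cathepsin called, from a level far under that of the other populations. It was at 11.52, 12.26 and 12.78 FPKM in WT against 4.84, 4.53 and 3.78 FPKM in KO-labelled MPPs. The 2 groups lie well apart. The log2 fold change was -1.30 ± 0.128 (SE; limma adjusted p = 0.00617), where 1.32% of 12372 genes were called lower. Without WT 1, WT 2 or WT 3 the call was lost, at limma adjusted p of 0.0567, 0.0615 and 0.0586. Over all genes those fits called 44, 47 and 43 lower, against 163 with all libraries. With each library left out in turn the log2 fold change of *Ctsh* stayed between -1.36 and -1.21.

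*Ctse* was at 13.86, 13.83 and 15.05 FPKM in WT against 8.96, 7.82 and 9.76 FPKM in KO-labelled MPPs. It fell by less than 2-fold (log2 fold change -0.63 ± 0.121, limma adjusted p = 0.0428), so that 2 of 9 members were lower at this adjusted p, against 3.52% of genes. Without KO 3 the adjusted p of *Ctse* was 0.00197, and without WT 1, WT 2, WT 3, KO 1 or KO 2 it missed the threshold, at 0.111 to 0.214 in limma. *Ctsb* and *Ctss* also had every KO-labelled library below every WT library, which makes 4 of 9 members against 23.3% of genes tested, but with log2 fold changes of -0.31 and -0.39 and limma adjusted p of 0.111 and 0.102. *Ctsl* was at 8.75, 9.16 and 9.06 FPKM in WT against 13.55, 11.90 and 5.83 FPKM in KO-labelled MPPs. The KO 1 and KO 2 libraries were thus above and KO 3 below every WT library, and without KO 3 the log2 fold change of *Ctsl* went from 0.12 to 0.46 (limma adjusted p = 0.00615). Low p-values were common in the fit without KO 3. There 7478 of 12375 genes had an unadjusted p under 0.05 in limma, against 2999 of 12372 with all libraries. *Ctsb* (0.0205), *Ctss* (0.0232) and *Ctsz* (0.0467) were also lower there at a limma adjusted p of at most 0.05, each by less than 2-fold. *Trim33* was itself lowest in KO 3. *Ctsz*, *Ctsa*, *Ctsd* and *Ctsc* lay between -0.16 and 0.01, while the median of all genes was -0.11. Of the 9 cathepsins 7 had a log2 fold change under 0, and 5 of 9 with median ratio scaling, which moved the median of all genes to -0.00 and turned *Ctsd* to 0.10 and *Ctsa* to 0.0122. *Ctsc* turned to -0.0057 with TPM, and *Ctsz* stayed under 0 with TPM, median ratio scaling and quantile normalization.

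Whether the KO label acted unequally in the 3 populations was tested with an interaction term over all 18 libraries, in which 2.45% of 12421 genes passed. It passed for *Ctsb*, *Ctsh* and *Ctsl*, and for no other member. The *Ctsb* change was larger in CLPs than in MPPs by -2.28 ± 0.119 (SE) and larger in CD115- CDPs than in MPPs by -0.93 ± 0.119 (limma F test, adjusted p = 1.75e-07). For *Ctsh* the differences were -3.40 ± 0.412 between CLPs and MPPs and -2.04 ± 0.412 between CLPs and CD115- CDPs (limma adjusted p = 0.000618). *Ctsl* fell in CLPs by 2.06 more than in MPPs, with an SE of 0.449, at a limma adjusted p of 0.0361. With single libraries left out, the adjusted p of *Ctsl* ran from 0.0077 to 0.105, and it missed the threshold without any WT or KO-labelled CLP library, without any MPP library but KO 3, and without CD115- CDP KO 1.

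When the replicate numbers entered this model as blocks, *Ctsz* (limma adjusted p = 0.00299) and *Ctsa* (0.0278) passed as well, against 8.67% of genes. *Ctsz* also passed (0.031), and *Ctsa* did not (0.0806), with a weight for each population's own spread, an alternative added after the data had been seen in which 5.11% of genes passed. Without both CD115- CDP libraries numbered 3, also added then, *Ctsz* (0.000888), *Ctsa* (0.0431) and *Ctss* (0.046) passed beside the 3, against 7.03% of genes in limma. With median ratio scaling *Ctsl* missed the threshold (0.0508) and *Ctsa* passed it (0.0419), and *Ctsl* missed it with a pseudocount of 0.1 (0.0587). For *Ctsc*, *Ctsd* and *Ctse* the limma adjusted p was 0.675, 0.35 and 0.441, which does not show that their changes were alike.

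The 9 genes together summed to 818, 913 and 833 FPKM in WT CLPs and to 319, 352 and 324 FPKM in KO-labelled CLPs. In CD115- CDPs the sums were 618, 517 and 881 FPKM in WT against 400, 404 and 507 FPKM in KO-labelled libraries, where WT 2 lies only just above KO 3. In MPPs they were 401, 397 and 431 FPKM in WT against 386, 345 and 371 FPKM in KO-labelled libraries. The KO-labelled sums of the 3 populations were thus 331 to 437 FPKM on average, while the WT means ran from 410 to 855 FPKM.

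The part of *Ctsd* in the total was larger in KO-labelled libraries of every population. *Ctsd* made up 16.9 ± 0.637% of the summed FPKM in WT CLPs and 36.7 ± 1.6% in KO-labelled CLPs (SD, n = 3). In CD115- CDPs it made up 21.4 ± 4.49% and 34.5 ± 1.16%, and in MPPs 40.6 ± 0.525% and 44.7 ± 0.630%. *Ctsh* made up 13.4% of the WT sum and 1.05% of the KO-labelled sum in CLPs. By mean level KO-labelled libraries of all 3 populations began with *Ctsd* and then *Ctsz*, and *Ctsh* was the lowest member in KO-labelled MPPs and CLPs.

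**Figure D3:**
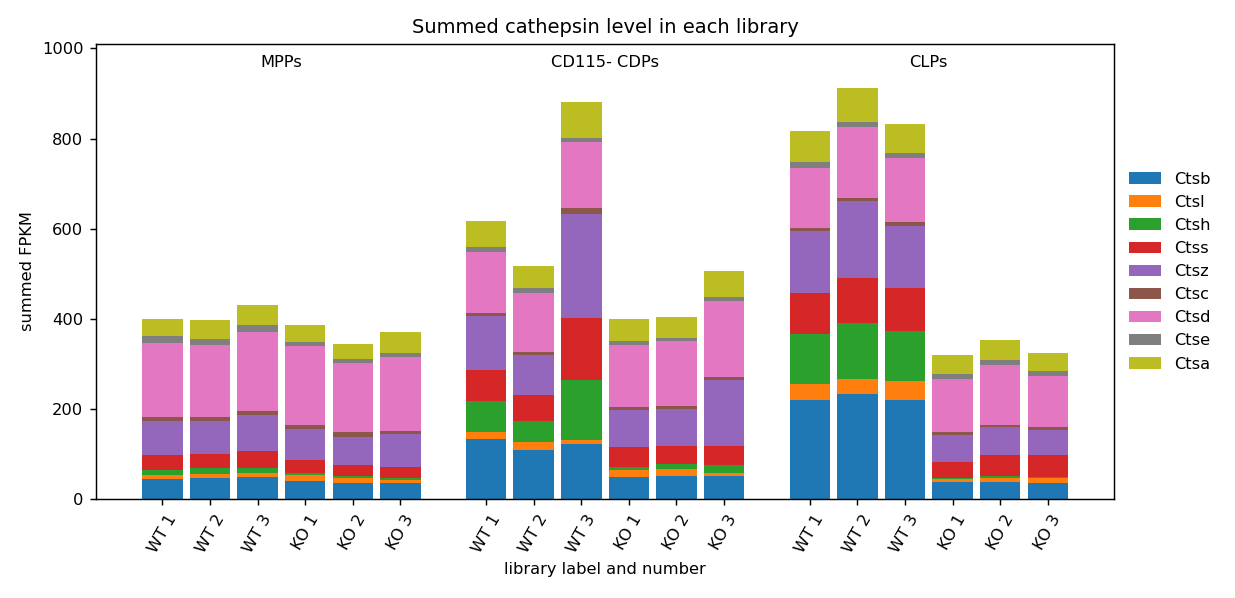
Summed FPKM of the 9 cathepsins in each of the 18 libraries, stacked by gene. The sums of WT CLPs reach 913 FPKM and those of KO-labelled CLPs 352 FPKM, while the Ctsd segment has similar FPKM under both labels (145 and 122 on average in CLPs) and so a larger share of the KO-labelled sum.

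Several inhibitors of the cathepsins rose with the KO label. Of 14 listed cystatins, stefins and serpins, 13 were tested in MPPs, where 7 were called higher, against 0.162% of all genes tested. In CD115- CDPs 4 of 13 tested were called higher, against 0.0409% of genes, and in CLPs 6 of 12, against 0.673%. None was called lower, though 1 in MPPs and 1 in CLPs was lower at an unadjusted p of 0.05. The median log2 fold change of the list was 2.72 in MPPs, 2.33 in the CD115- CDPs and 1.47 in the CLPs, where the medians over all genes were -0.11, -0.07 and 0.01. With the replicate block, 8 of 13 were called higher in CD115- CDPs, against 0.376% of genes. The calls were mostly stefin A genes, cytosolic inhibitors of cysteine cathepsins that are near-identical copies, so reads may be divided between them. *Stfa1* was at 0.38, 0.78 and 0.51 FPKM in WT against 160.30, 64.51 and 130.46 FPKM in KO-labelled MPPs (log2 fold change 6.17 ± 0.330, limma adjusted p = 0.00125). In KO-labelled CLPs *Stfa1* was at 4.21, 29.22 and 14.33 FPKM, against 0 to 3.87 FPKM in WT. *Serpina3g*, a serpin that inhibits cathepsin B, was called higher in CLPs (log2 fold change 1.42, limma adjusted p = 0.0452).

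*Cst3*, the secreted cystatin C, was the most abundant gene of the list and was lower in KO-labelled CLPs. It was at 305.29, 391.82 and 341.12 FPKM in WT against 186.56, 230.89 and 206.25 FPKM in KO-labelled CLPs, and fell by less than 2-fold (log2 fold change -0.73 ± 0.130, limma adjusted p = 0.00743). *Cstb*, the cytosolic stefin B, had a log2 fold change of -0.15 in CLPs (limma adjusted p = 0.50). The summed FPKM of the whole list was 432 ± 35.8 in WT against 765 ± 190 in KO-labelled MPPs (SD, n = 3). It was 784 ± 395 against 752 ± 213 in CD115- CDPs and 437 ± 57.7 against 374 ± 68.5 in CLPs. The mean of the list was thus higher with the KO label in MPPs alone. In CD115- CDPs the sums were 601, 514 and 1238 FPKM in WT against 627, 632 and 999 FPKM in KO-labelled libraries. The higher WT mean there rests on WT 3, and KO 1 and KO 2 were both above WT 1 and WT 2. Summed over the list and divided by the summed cysteine cathepsins, inhibitor transcripts stood at 0.630, 0.741 and 0.710 in WT against 2.10, 2.71 and 2.28 in KO-labelled CLPs. The ratio was 2.31 ± 0.0982 in WT against 4.90 ± 1.0 in KO-labelled MPPs, and 1.65 ± 0.240 and 3.28 ± 0.353 in CD115- CDPs (SD, n = 3). In CLPs the higher ratio went with a lower cathepsin sum, not with a higher mean inhibitor sum. In CD115- CDPs the cathepsin sum was also lower, while the inhibitor sum was lower with the label only between the libraries numbered 3. This is a ratio of RNA levels and was not tested.

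**Figure D4:**
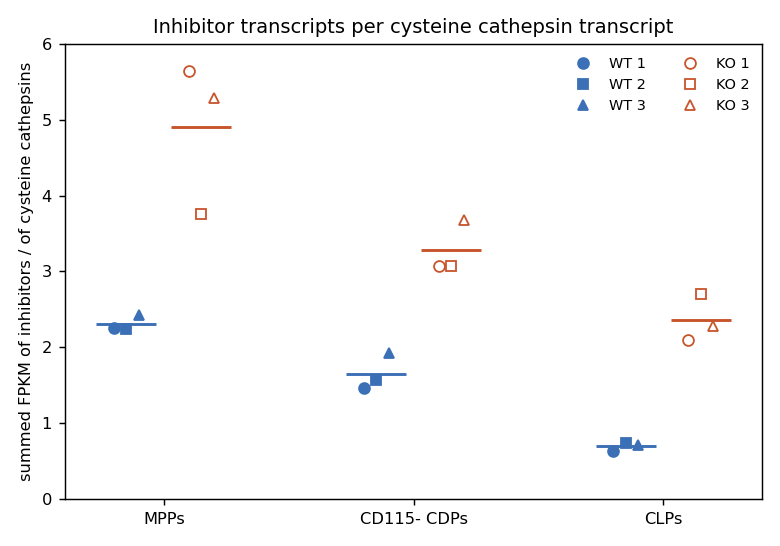
Summed FPKM of the listed cathepsin inhibitors divided by the summed FPKM of the 6 cysteine cathepsins, per library, with filled symbols for WT, open symbols for KO-labelled libraries and a line at the mean of 3. The KO-labelled means are 4.90, 3.28 and 2.36 and the WT means 2.31, 1.65 and 0.694 in MPPs, CD115- CDPs and CLPs.

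Among other genes of the lysosome 1 was called, and more fell in CLPs by less than 2-fold. Of 25 listed, 1 was called lower in CLPs, where 2.84% of all genes tested were, and none in MPPs or CD115- CDPs. When only the adjusted p threshold of 0.05 was kept, 8 of the 25 were lower in CLPs, where 8.92% of all genes tested were. In MPPs 2 of the 25 then were, beside 3.52% of genes. At an unadjusted p of 0.05, 10, 4 and 10 were lower in MPPs, CD115- CDPs and CLPs. Over all genes tested, 2999 of 12372, 1288 of 12229 and 3655 of 12339 had an unadjusted p under 0.05 in either direction. The called gene was *Psap*, the precursor of the saposins that help degrade sphingolipids, at 1098 to 1321 FPKM in WT against 313 to 345 FPKM in KO-labelled CLPs (log2 fold change -1.91 ± 0.118, limma adjusted p = 2.28e-05). The median log2 fold change of the 25 was -0.14 in CLPs, against -1.64 for the 6 cysteine cathepsins. With the replicate block *Psap* was also called lower in CD115- CDPs (log2 fold change -1.43, limma adjusted p = 0.0283). None of 10 genes of cathepsin maturation and sorting was called by limma in any population, and at an unadjusted p of 0.05 there was 1 lower and 1 higher in MPPs, 0 in CD115- CDPs, and 2 lower in CLPs. Among them *Lgmn*, which cuts several cathepsins to their mature chains, was at 28.57 to 36.31 FPKM in WT against 19.57 to 25.49 FPKM in KO-labelled CLPs (log2 fold change -0.45, limma adjusted p = 0.0641).

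Of 9 genes of class II antigen processing, *Ifi30* was called lower in MPPs and CLPs, as were 1.32% and 2.84% of all genes tested. None was called in CD115- CDPs, where 2 were lower at an unadjusted p of 0.05 and *Ifi30* was called with the replicate block (limma adjusted p = 0.0179). In CLPs 2 of the 9 were lower and 1 higher at a limma adjusted p of at most 0.05 with no minimum fold. *Ifi30* encodes the lysosomal thiol reductase that unfolds antigens for the cathepsins, and was at 45.39, 76.60 and 60.22 FPKM in WT against 4.95, 5.14 and 6.16 FPKM in KO-labelled CLPs (log2 fold change -3.24 ± 0.182, limma adjusted p = 1.35e-05). *Cd74*, the invariant chain that *Ctss* and *Ctsl* cleave, had a log2 fold change of -0.16 in CLPs (limma adjusted p = 0.666). Of 6 regulators tested in CLPs, *Spib*, *Irf8* and *Tfeb* were called lower, against 2.84% of genes, with log2 fold changes of -5.20, -2.73 and -1.11. *Tfeb*, a factor that drives lysosomal genes through CACGTG elements, was at 22.11, 22.80 and 19.87 FPKM in WT against 10.18, 10.08 and 8.26 FPKM in KO-labelled CLPs (limma adjusted p = 0.000525). *Spi1*, which encodes PU.1, had a log2 fold change of -0.11 there (limma adjusted p = 0.579). *Tfec* was called lower in MPPs, with a log2 fold change of -1.02 (limma adjusted p = 0.0231). *Irf8* had a larger change there, of -1.55, and was not called (limma adjusted p = 0.0774). No regulator was called in CD115- CDPs, where 4 of 7 were lower at an unadjusted p of 0.05, and *Irf8* and *Spib* were called with the replicate block.

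Markers of other cell types moved with the label beside these results. Over all genes tested, 2.84% were called lower in CLPs and 1.32% in MPPs. In CLPs all 8 plasmacytoid DC markers were called lower, and their summed level was 1701 to 1980 FPKM in WT against 404 to 414 FPKM in KO-labelled libraries. Of 6 monocyte and macrophage markers tested there, 3 were called lower, with sums of 167 to 231 and 85.2 to 132 FPKM, and *Adgre1* and *Fcgr1* were under 0.5 FPKM in every CLP library. Of 5 conventional DC markers tested in CLPs, 4 were called lower, with sums of 356 to 414 and 322 to 347 FPKM, while *Batf3*, *Xcr1* and *Zbtb46* were under 0.5 FPKM. *Flt3*, on the same list and in the sums, was not called (log2 fold change 0.14, limma adjusted p = 0.408). The B lymphoid sum in CLPs was 1276 to 1929 FPKM in WT against 2163 to 2844 FPKM in KO-labelled libraries, and the neutrophil granule sum 424 to 993 and 241 to 414 FPKM. The erythroid sum in CLPs was 34.2 to 56.1 and 5.46 to 9.70 FPKM, with 3 of 5 markers tested called lower. In CD115- CDPs the plasmacytoid DC sum was 493 to 888 FPKM in WT against 198 to 442 FPKM in KO-labelled libraries, and the monocyte sum reached 1504 FPKM in WT 3. In MPPs the plasmacytoid DC sum was 166 to 183 FPKM in WT against 157 to 164 FPKM in KO-labelled libraries, while the erythroid sum was 358 to 388 FPKM against 31.9 to 57.7 FPKM and the monocyte sum 481 to 504 FPKM against 135 to 197 FPKM. The neutrophil granule sum of MPPs was 3481 to 3606 FPKM against 1565 to 2584 FPKM, with 3 of 9 markers called lower, and the basophil and mast cell sum 192 to 217 FPKM against 65.2 to 107 FPKM, with 4 of 6 called lower. Their part in the cathepsin differences was not tested.

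The genes whose values followed each cathepsin most closely were found by Pearson correlation over the 18 libraries, on log2(FPKM + 1) less the mean of the population, among 7787 genes whose mean reached 5 FPKM in each population. The label and the library numbers are shared by all genes in these points, so the values are a description. *Ctsb* was nearest to *Bst2* (r = 0.994), *Cd7* (0.986) and *Ctsh* (0.975). *Ctsh* was nearest to *Tyrobp* (0.988), *Ptms* (0.985) and *Sp140* (0.985), and *Ctss* to *Ifi30* (0.971), *S100a11* (0.957) and *Unc93b1* (0.956). *Ctsz* was nearest to *Tmed3*, *S100a6* and *Slpi*, *Ctsl* to *Tubb2a*, *Rell1* and *Ndnl2*, and *Ctsa* to *Grk6*, *Ctsz* and *Pepd*, all at 0.918 to 0.974. The values for *Ctsc* (*Fam49b*, *Rac1*, *Ap1s2*), *Ctsd* (*Nr2c2ap*, *Mrpl52*, *Tor2a*) and *Ctse* (*Dpp4*, *Chst15*, *Phf1*) ran from 0.819 to 0.929. Between the members themselves r ran from -0.06 for *Ctsl* and *Ctsc* to 0.975 for *Ctsb* and *Ctsh*.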

How the data were processed

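The authors sequenced mRNA libraries of sorted cells as single-end reads of 50 bases and deposited FPKM per gene and library. The submitters' processing notes name Bowtie2 2.2.5, RSEM 1.2.12, HISAT2 2.0.4 and the mm10 build. FPKM were used as deposited, and read counts were not used here, so the tests were made with limma 3.58.1 in R 4.3.3 (lmFit, eBayes with a trend) on log2(FPKM + 1), which understates the change of low genes. Each population was fitted alone, with genes whose mean FPKM over its 6 libraries reached 0.5 and Benjamini-Hochberg adjustment over all of them. Effects were compared between populations with an interaction term over all 18 libraries. The fits were also run on simulated libraries drawn independently of each other. These held no deviations shared between libraries, so they do not test the fits for the libraries that stood apart. Depth came from the steps of FPKM times transcript length (GENCODE vM21) for 509 to 575 low genes per library, and whole reads were not assigned gene by gene. Nothing in the labels ties libraries to single mice, so p-values measure the spread between these libraries, which may be partly technical.

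WT and KO-labelled libraries share the numbers 1 to 3 in the labels. Deviations from the group means correlated between same-numbered libraries at 0.437, 0.671 and 0.790 in CD115- CDPs and at 0.400, 0.329 and 0.131 in CLPs. Some libraries of different number did so too. In CD115- CDPs these were WT 2 with KO 1 (0.664) and WT 1 with KO 2 (0.381), and in CLPs WT 3 with KO 2 (0.234). The other correlations between different numbers were negative in these populations. The numbers therefore do not establish pairs, and the fit blocked by that number is an alternative only.

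The 9 members and all gene lists were chosen with earlier results of these data known. Named were the 9 members, *Trim33*, up to 4 called genes of a list and population with the largest fold changes, the 2 most abundant genes of a list, and the 3 genes nearest to each member. Other genes were named after their values were seen: those overlapping a member in the genome, and *Cstb*, *Serpina3g*, *Lgmn*, *Cd74*, *Spi1*, *Csf1r*, *Il7r*, *Cd34*, *Flt3*, *Batf3*, *Xcr1*, *Zbtb46*, *Adgre1* and *Fcgr1*. Promoters came from RefSeq (GRCm38.p6). Summaries and plots used Python 3.11.15 with pandas 2.3.3, numpy 2.4.6 and matplotlib 3.10.9. Alternatives were a pseudocount of 0.1, no filter, a mean of at least 5 FPKM, TPM, median ratio scaling, quantile normalization, no trend, the block, each library left out, both CD115- CDP libraries numbered 3 left out and a weight per population (both added after the data had been seen), other call thresholds and the log2 ratio of mean FPKM.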

Additional observations from a re-analysis of the deposited data

Results flagged for a closer look

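The KO label effect on 3 cathepsins differed between populations by the interaction test of limma over all 18 libraries. For *Ctsb* the adjusted p was 1.75e-07, with log2 fold changes of -0.31 in MPPs, -1.25 in CD115- CDPs, then -2.59 in CLPs, with every KO-labelled library below every WT library in each population. For *Ctsh* it was 0.000618, with log2 fold changes of -1.30, -2.66 and -4.70 in that order. For *Ctsl* it was 0.0361, with log2 fold changes of 0.12, -0.18 and -1.94.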

How the results depend on the processing

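Of 414 recomputed log2 fold changes of the members, 386 counted as the same, 11 lost and 2 gained a call, 13 reversed and 2 moved. In the fits, the same meant an unchanged direction and side of the threshold. The log2 ratio of mean FPKM has no call, and there it meant lying within the residual SD of the main value. The count of cathepsins called lower in CLPs was 5, and 4 to 5 with a library left out. In MPPs it went from 1 to 2 with no minimum fold, 0 at an adjusted p of at most 0.001, and 0 to 1 with a library left out. In CD115- CDPs it went from 1 to 0 with no trend, 0 at an adjusted p of at most 0.001, and 2 without both libraries numbered 3. It was 0 there with any library left out, in fits that called 0 to 5 of all genes lower. With the replicate block it was 2 in CD115- CDPs, 5 in CLPs and 1 in MPPs. In MPPs same-numbered libraries correlated at 0.038, 0.482 and 0.472, and the numbers do not establish pairs in any population. The interaction passed for 3 members, for 2 with a pseudocount of 0.1, for 5 with the replicate block, for 6 without both CD115- CDP libraries numbered 3 (a choice made after seeing the data; 7.03% of all genes passed there), and for 2 to 4 with a library left out. No member was called higher under any alternative. The reversals were in small changes: in MPPs *Ctsl* ran from -0.0897 to 0.46, *Ctsc* from -0.0359 to 0.0797 and *Ctsd* from -0.0649 to 0.0232 with a library left out, and in CD115- CDPs *Ctsl* from -0.51 to 0.13. TPM gave -0.0057 for *Ctsc* in MPPs and -0.0085 for *Ctsd* in CD115- CDPs, and median ratio scaling gave 0.10 for *Ctsd* and 0.0122 for *Ctsa* in MPPs. The log2 ratio of mean FPKM gave -1.48 for *Ctsh* in MPPs and -5.04 in CLPs. The cause was not tested for any of these. Depth limited little here, since the lowest member value stood on about 85 reads.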

Other observations

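Of 13 further cathepsin genes listed, 4 passed the filter, and none was called by limma in any population, with 2 lower in MPPs and 1 higher in CLPs at an unadjusted p of 0.05. *Ctsf*, a cysteine cathepsin, was at 10.24, 10.26 and 10.75 FPKM in WT against 5.95, 3.85 and 4.53 FPKM in KO-labelled MPPs. Its log2 fold change of -0.999 was just short of the 2-fold minimum (limma adjusted p = 0.026). *Ctsg*, a neutrophil granule protease, followed the library number in CD115- CDPs, with 330.42 FPKM in WT 3, 503.46 FPKM in KO 3 and 54.58 to 74.97 FPKM in the other 4.

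The granule proteases that cathepsin C activates were not called by limma either, among 6 tested in MPPs, 5 tested in CD115- CDPs and 4 tested in CLPs, where 2 were lower at an unadjusted p of 0.05. *Elane*, neutrophil elastase, was at 25.98, 37.03 and 61.70 FPKM in WT against 11.46, 15.14 and 28.22 FPKM in KO-labelled CLPs. The ranges overlap, and each KO-labelled library was below the WT library of its number. The log2 fold change of -1.15 had a limma adjusted p of 0.0692, and of 0.000139 with the replicate block, under which it was called. *Ctsf*, *Ctsg* and *Elane* were singled out after their values were seen.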
